A study of Homo sapiens with 15 samples.

Results

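The 3 vehicle libraries of this series give the baseline transcriptome of HepG2 cells, a human liver tumour line that is widely used as a stand-in for hepatocytes. They were chosen by their labels as solvent controls and make up 3 of 15 libraries. Cells had been given 0.1% dimethyl sulfoxide (DMSO) for 72 h. The other 12 libraries came from cells given tris(2-chloroethyl) phosphate (TCEP) at 25 or 250 µM or tris(2-chloroisopropyl) phosphate (TCIPP) at 2.5 or 25 µM for the same time, 3 libraries each. All groups were the same tumour line in serum-containing medium, so the data hold neither normal hepatocytes nor a second line. Each replicate was seeded, treated and extracted separately, per the labels' protocols, and poly-A RNA was sequenced as stranded paired-end libraries.

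Hepatocytes make most proteins of blood plasma, convert ammonia to urea, store and release glucose, and oxidise and conjugate drugs. These functions depend on a set of transcription factors that includes HNF4A and the FOXA and C/EBP families. Liver tumour cells often keep part of this program and switch on genes of the foetal liver, such as alpha-fetoprotein, together with genes of growth and cell division.

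The DMSO libraries held 7906447, 8016277 and 21435931 exon reads, and replicate 3 was the deepest of them; over all 15 libraries the range was 5353963 to 26771751. Levels are given as RPKM, exon reads per kilobase of exon scaled to a library's gene reads, which allows genes of different length to be compared. A gene is counted as expressed at 1 RPKM or more in all 3 libraries. Unless stated otherwise, reads are exon reads. A gene is called not detected at 3 exon reads or fewer in each of them, and the upper limit given beside a gene with 0 reads is the RPKM that 3 reads over the 3 libraries together would make. These limits cover counting error only, because the reads carry no molecular identifiers. By these rules 10110 of 36787 genes with an annotated exon length were expressed, of which 9588 were protein coding, 246 were long non-coding RNAs and 140 were pseudogenes. A level of 10 RPKM was reached by 3281 genes, 100 RPKM by 269 and 1000 RPKM by 24. Among the 19327 protein coding genes, 49.6% were expressed and 33.5% were not detected.

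ALB (albumin), AFP (its foetal relative alpha-fetoprotein) and AFM (afamin, a vitamin E carrier) follow each other on the plus strand of chromosome 4. Their promoters are shown because the 3 genes lie side by side and share a short motif but differ widely in level. CYP3A7 and CYP3A4, the foetal and adult forms of a drug oxidase on chromosome 7, are shown because 1 of their windows holds the motif and the other does not. Each window runs from 250 bases before to 50 bases after the gene start, read on the gene's strand from RefSeq (GRCh38.p14), and capitals mark GTTAAT on either strand, an AT-rich motif searched for in all promoters.
ALB, chr4:73404037-73404336, plus strand: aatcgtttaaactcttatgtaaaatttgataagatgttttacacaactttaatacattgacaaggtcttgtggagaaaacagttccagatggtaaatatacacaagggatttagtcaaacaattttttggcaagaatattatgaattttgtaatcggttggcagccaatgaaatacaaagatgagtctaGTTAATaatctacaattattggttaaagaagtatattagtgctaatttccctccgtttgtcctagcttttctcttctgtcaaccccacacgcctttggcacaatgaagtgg
AFP, chr4:73435971-73436270, plus strand: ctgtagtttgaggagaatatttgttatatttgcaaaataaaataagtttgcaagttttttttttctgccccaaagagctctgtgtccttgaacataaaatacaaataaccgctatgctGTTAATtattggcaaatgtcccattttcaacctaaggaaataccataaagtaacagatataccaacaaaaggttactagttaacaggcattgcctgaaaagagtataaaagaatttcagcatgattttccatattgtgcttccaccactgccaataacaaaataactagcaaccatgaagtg
AFM, chr4:73481495-73481794, plus strand: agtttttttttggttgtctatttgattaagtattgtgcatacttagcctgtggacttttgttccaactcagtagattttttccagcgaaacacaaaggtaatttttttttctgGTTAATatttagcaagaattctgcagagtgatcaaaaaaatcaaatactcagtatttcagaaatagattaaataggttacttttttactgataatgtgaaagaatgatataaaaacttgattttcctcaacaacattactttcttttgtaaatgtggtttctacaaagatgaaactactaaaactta
CYP3A7, chr7:99735147-99735446, minus strand: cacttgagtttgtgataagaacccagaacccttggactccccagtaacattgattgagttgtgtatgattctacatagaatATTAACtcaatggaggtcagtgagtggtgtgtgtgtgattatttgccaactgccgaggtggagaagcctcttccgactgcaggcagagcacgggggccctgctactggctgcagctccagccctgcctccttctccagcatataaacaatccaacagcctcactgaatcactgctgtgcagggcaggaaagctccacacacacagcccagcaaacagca
CYP3A4, chr7:99784135-99784434, minus strand: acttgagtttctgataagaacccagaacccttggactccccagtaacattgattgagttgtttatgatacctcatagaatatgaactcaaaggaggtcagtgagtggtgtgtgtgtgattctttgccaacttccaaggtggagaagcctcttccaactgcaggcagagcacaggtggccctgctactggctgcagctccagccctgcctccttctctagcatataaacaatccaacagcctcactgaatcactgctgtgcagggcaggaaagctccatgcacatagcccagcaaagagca

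The motif stood 61 bases before the gene start in ALB, 132 in AFP, 137 in AFM and 169 in CYP3A7. The letters GTTAAT did not occur in the CYP3A4 window. Over all 27305 genes with a promoter window in that table, 8.27% held the motif on either strand. The letters TATAAA, searched on both strands as well and neither containing nor contained in the first motif, were found in the windows of AFP, AFM, CYP3A7 and CYP3A4 but not in that of ALB, against 14.0% of all genes. A match describes letters and no binding was measured.

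ALB stood at 5896, 4921 and 6801 RPKM in the DMSO libraries, the highest level of any gene encoded in the nucleus. AFP stood at 558.6, 434.6 and 578.7 RPKM. Replicate 2 was the lowest library for both. The log2 ratio of ALB over AFP was 3.49 ± 0.0786 (SD, n = 3), and it varied less between libraries than either level did. AFM, whose window holds the same motif, had 3, 0 and 4 reads, which is 0.156, 0 and 0.0769 RPKM, below the level of an expressed gene. CYP3A7 stood at 2.18, 1.54 and 3.03 RPKM, and CYP3A4 at 0.258, 0.255 and 0.191 RPKM, with no overlap between the 2 genes.

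By RPKM the top of the ranking belonged to the mitochondrial genome. All 13 protein genes of that genome were among the 20 most abundant genes, led by the cytochrome oxidase subunits MT-CO1 at 12512 ± 1140 RPKM, MT-CO2 at 11902 ± 1106 and MT-CO3 at 8732 ± 787 (SD, n = 3). The nuclear genes among the 20 were ALB, the iron store subunit FTL (4664 ± 273 RPKM), lysozyme LYZ (2559 ± 349), the translation factor EEF1A1 (2504 ± 100), the apolipoprotein APOA2 (2282 ± 216), the fetuin AHSG (1832 ± 225) and the protease inhibitor SERPINA1 (1491 ± 48.2). Of the exon reads of LYZ 64.8% were unique to 1 gene and place, of EEF1A1 17.9%, of MT-CO1 70.2% and of MT-ND2 76.4%. Reads of these genes may thus in part belong to near-identical copies. For MT-CO2 and MT-CO3 the unique shares were 95.2 and 91.5%.

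**Figure D1:**
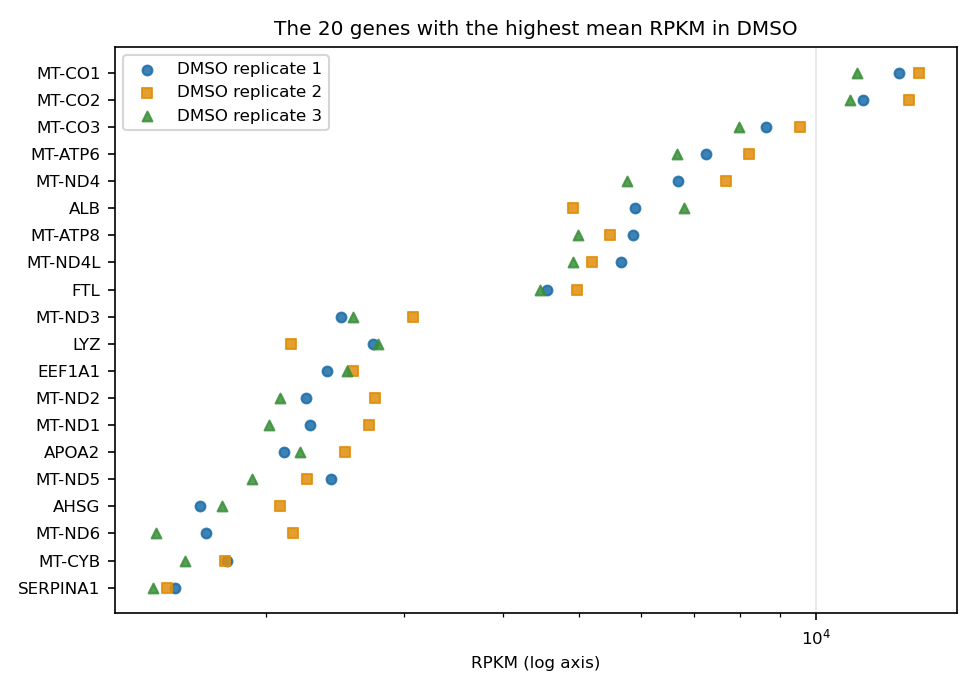
RPKM (log axis) of the 20 genes with the highest mean RPKM in the DMSO libraries, 1 point per library. The 13 mitochondrially encoded genes and 7 nuclear genes are shown, and MT-CO1 is at the top with a mean of 12512 RPKM.

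Ranking by share of exon reads gave weight to long transcripts. The median exon length was 3174 bases in the 20 genes with the largest share and 999 bases in the 20 with the highest RPKM, and 12 genes were in both. ALB took 2.17 ± 0.345% of exon reads, MT-CO1 2.12 ± 0.196%, the matrix protein FN1 (fibronectin) 1.89 ± 0.102%, EEF1A1 1.63 ± 0.0627% and APOB, the core protein of very low density lipoprotein, 1.28 ± 0.138%. The 10 genes with the largest share held 13.5 ± 0.302% of exon reads, the top 100 held 31.0 ± 0.303% and the top 1000 held 61.1 ± 0.257%. When the 10 highest genes were taken by RPKM they held 25.5% of the summed RPKM. The share of mitochondrially encoded genes was 7.04, 7.68 and 6.27% in replicates 1, 2 and 3.

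The secretory program of the hepatocyte was largely present. The 139 matched genes of 4 lists of secreted proteins took 9.87 ± 0.521% of all exon reads. Of the plasma protein list 34 of 51 genes were expressed, of the apolipoproteins and lipoprotein genes 24 of 27, of coagulation and fibrinolysis 21 of 31 and of complement 20 of 30. These shares can be set beside the 49.6% of protein coding genes that were expressed, although the lists were drawn up for liver genes. Within the plasma protein list, which leaves out apolipoproteins and coagulation factors, the most abundant genes after ALB, AHSG and SERPINA1 were A2M, a broad protease trap (1304 ± 244 RPKM), IGFBP1, an insulin-like growth factor carrier (1023 ± 187 RPKM), ITIH2 (775 ± 10.3 RPKM) and TF, transferrin (607 ± 30.5 RPKM).

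Among lipoprotein genes APOH reached 1140 ± 68.7 RPKM, APOB 787 ± 83.6, APOA1, the main protein of high density lipoprotein, 497 ± 39.0 and APOE 252 ± 23.4. LPA, which encodes apolipoprotein(a), had 0 reads in every DMSO library, an upper limit of 0.0113 RPKM. The fibrinogen chains FGG, FGA and FGB stood at 219 ± 14.4, 177 ± 19 and 71.4 ± 5.73 RPKM, and prothrombin, F2, at 150 ± 6.10 RPKM. F9, coagulation factor IX, had 0 reads, an upper limit of 0.0263 RPKM. The vitamin K reductase VKORC1 stood at 37.5 ± 1.58 RPKM, but with 5.86% unique reads.

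Complement held both abundant and undetected genes. C3, the central component, reached 490.1, 464.9 and 455.8 RPKM, and CFI, a regulatory protease, 84.2 ± 8.23 RPKM. C9, a subunit of the membrane attack complex, had 0 reads in all 3 libraries, an upper limit of 0.0248 RPKM. Of the reads of C4A and C4B, near-identical copies, 7.96% and 8.08% were unique, so their levels of 48.6 ± 1.44 and 57.8 ± 3.73 RPKM cannot be separated.

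Among the 8 undetected plasma genes, APCS had 0 reads in every DMSO library, an upper limit of 0.0791 RPKM. Several inducible acute phase proteins were among them too. CRP and SAA2 had 0 reads in every DMSO library, with upper limits of 0.0363 and 0.0329 RPKM, and SAA1 had 0.0186 ± 0.0322 RPKM. Other proteins of the acute phase were present: ORM1 stood at 214 ± 17.3 RPKM and SERPINA3 at 294 ± 60.8 RPKM with 3.11% unique reads. The growth factor IGF1 had 1 read in all 3 libraries together, against 462.2, 702.5 and 412.2 RPKM for its foetal relative IGF2, whose reads were 68.9% unique. IGF2 was the highest in replicate 2. The neighbouring non-coding gene H19, which is often expressed with IGF2 in foetal liver, had 5, 0 and 10 reads, which is 0.119 ± 0.106 RPKM. GC, the vitamin D carrier, was at 0.0984 ± 0.127 RPKM, and HPX, which binds haem, at 1.27, 0.876 and 0.997 RPKM.

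Of 35 liver transcription factors 31 were expressed, 4 were between the detection limit and 1 RPKM, and 0 were undetected. HLF, a basic leucine zipper factor, was the highest at 69.2, 70.6 and 69.1 RPKM. HNF4A, a nuclear receptor that many liver genes need, stood at 33.1, 33.8 and 32.3 RPKM. Both varied little between libraries. CEBPB stood at 26.3, 49.1 and 29.9 RPKM and FOXA2 at 14.8, 23.9 and 14.8 RPKM, and replicate 2 was the highest for both. CEBPA, a factor of the mature hepatocyte, stood at 3.05 ± 0.340 RPKM with 0% unique reads. NR5A2, a nuclear receptor of bile acid synthesis, was at 0.150 ± 0.111 RPKM, and the constitutive androstane receptor NR1I3 at 0.399 ± 0.0884 RPKM.

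**Figure D2:**
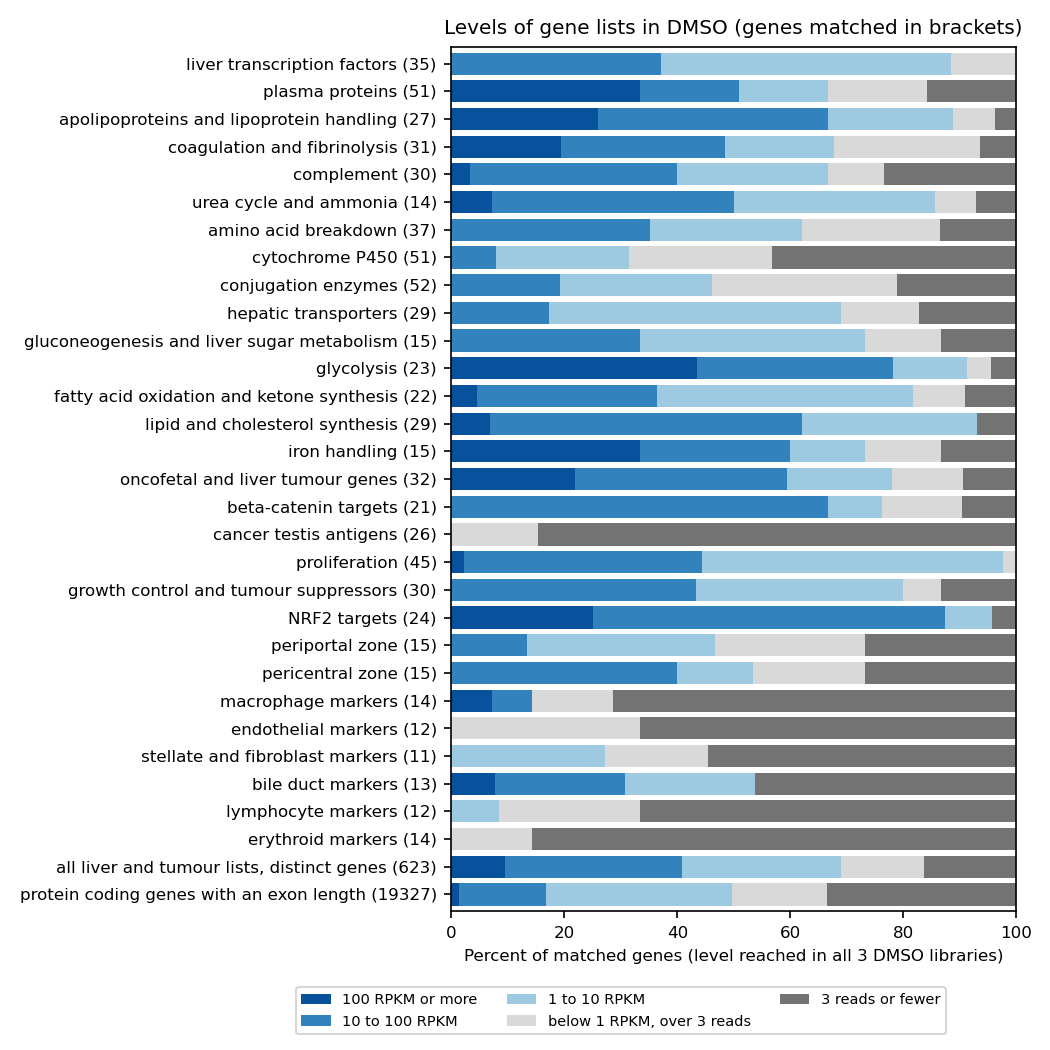
Share of each gene list (percent of matched genes, with their number in brackets) at 5 levels in the DMSO libraries; a level counts when all 3 libraries reach it. Proliferation, NRF2 target and lipid synthesis lists are almost wholly at 1 RPKM or more, while cancer testis antigens and the markers of blood and vessel cells are mostly at 3 reads or fewer.

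Of 51 cytochrome P450 genes 16 were expressed and 22 were not detected, 12 of them with 0 reads, and 0 reached 100 RPKM. The highest were CYP27A1, a sterol hydroxylase (42.2 ± 2.20 RPKM), CYP51A1 of cholesterol synthesis (38.9 ± 1.91 RPKM, 1.88% unique reads) and CYP24A1, which breaks down vitamin D (12.4 ± 1.97 RPKM). The drug oxidases CYP2C8, CYP2C19 and CYP2A6 had 0 reads in every DMSO library, which for CYP2C8 allows at most 0.0292 RPKM. CYP2E1, which oxidises ethanol, had 0, 1 and 2 reads, and CYP1A2 had 0, 0 and 1.

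Of 52 conjugation genes 24 (46.2%) were expressed and 11 (21.2%) were not detected, against 49.6% and 33.5% of protein coding genes. SULT2A1, a sulfotransferase of steroids and bile acids, stood at 105 ± 6.07 RPKM, the glutathione transferase GSTO1 at 60.8 ± 4.68 and the glucuronosyltransferase UGT2B10 at 51.3 ± 1.28. GSTP1, a glutathione transferase of most tissues other than hepatocytes, had 0 reads in all 3 libraries, an upper limit of 0.0380 RPKM. NNMT, which methylates nicotinamide, had 0 reads as well. Of the UGT1A genes, which share exons, the 7 with values here were below 1 RPKM on average, and 0 to 3.75% of their reads were unique. The GSTP1 promoter is shown because this undetected gene has a window rich in CpG, with 36 CG steps, more than in 85.2% of genes, and methylation was not measured here. Capitals mark each CG.
GSTP1, chr11:67583562-67583861, plus strand: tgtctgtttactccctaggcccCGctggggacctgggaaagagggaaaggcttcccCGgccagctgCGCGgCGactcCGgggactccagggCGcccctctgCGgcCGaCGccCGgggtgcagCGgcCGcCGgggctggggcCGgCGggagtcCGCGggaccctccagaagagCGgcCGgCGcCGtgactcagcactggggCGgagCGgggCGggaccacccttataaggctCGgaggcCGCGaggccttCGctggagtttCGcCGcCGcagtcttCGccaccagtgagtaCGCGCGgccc

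Of 29 hepatic transporters 20 were expressed. ABCC2, which exports conjugates into bile, was the highest at 98.1, 95.2 and 94.3 RPKM, and the citrate carrier SLC13A5 followed at 22.6 ± 0.717 RPKM. Of 5 undetected transporters, the uptake carriers SLCO1B1 and SLCO1A2 had 0 reads, and the bile acid carrier SLC10A1 had 0, 1 and 0. ABCB11, the bile salt export pump, had 1, 0 and 0 reads.

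Ammonia and amino acid genes were uneven within each pathway. Of 14 genes of the urea cycle and ammonia handling 12 were expressed. CPS1, which starts the cycle, stood at 2.91, 2.97 and 3.10 RPKM, and ASS1 at 18.6, 21.8 and 19.7 RPKM. OTC, the second enzyme, had 0, 1 and 1 reads. ARG1, the last enzyme, stood at 2.05, 0.810 and 2.78 RPKM and was lowest in replicate 2. GLUL, which fixes ammonia to glutamate, stood at 53.7 ± 2.08 RPKM and GLUD1 at 123 ± 3.57 RPKM. Of 37 genes of amino acid breakdown 23 were expressed, led by HPD of tyrosine breakdown (76.1 ± 13.1 RPKM), the transaminase GPT2 (58.1 ± 2.77) and HGD (45.7 ± 2.84). TDO2, which opens the ring of tryptophan, and SDS, serine dehydratase, had 0 reads, with upper limits of 0.0139 and 0.0244 RPKM. TAT, tyrosine aminotransferase, stood at 0.863 ± 0.146 RPKM.

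Of 23 glycolysis genes 21 were expressed and 10 exceeded 100 RPKM in all 3 libraries, and the median of the list was 60.5 RPKM, against 5.50 RPKM for the 15 genes of gluconeogenesis and liver sugar metabolism. GAPDH stood at 1152 ± 139 RPKM, ENO1 at 581 ± 28.1 and LDHA at 402 ± 21.5. LDHB, the other common lactate dehydrogenase subunit, had 0 reads in every DMSO library, an upper limit of 0.0245 RPKM, and 0 in each of the 12 treated libraries too. PCK1, the entry enzyme of gluconeogenesis, stood at 17.9, 16.7 and 15.5 RPKM and G6PC, which releases free glucose, at 5.62, 11.1 and 6.64 RPKM. FBP1, fructose bisphosphatase, was at 0.125 ± 0.0202 RPKM.

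Lipid genes were broadly expressed. Of 29 genes of lipid and cholesterol synthesis 27 were expressed, among them SCD (286 ± 17.3 RPKM, 58.9% unique reads) and SQLE (55.3 ± 1.99). The 2 that were not detected were ME1, malic enzyme, with 0 reads, and INSIG1, a retention protein for the sterol sensor, with 2, 2 and 1 reads. Its relative INSIG2 stood at 58.4 ± 10.2 RPKM. Of 22 genes of fatty acid oxidation and ketone synthesis 18 were expressed, with the fatty acid binding protein FABP1 at 170 ± 44.5 RPKM.

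Levels of a liver form and another form of an enzyme or protein were set side by side in 16 pairs, chosen with earlier results known. The data hold no normal hepatocytes, so whether the cells switched between forms was not tested. The liver form was lower than the other form in all 3 DMSO libraries in 14 pairs and higher in 2, and the ranges overlapped in 0 of 16. The log2 ratio of IGF1 over IGF2 was −12.26 ± 0.452 and that of the glucose carriers SLC2A2 over SLC2A1 −4.50 ± 0.200, with 0.1 RPKM added to both forms. IGF1 was not detected, so the size of its ratio depends on the added value. Pyruvate kinase followed the same order, with PKLR at 2.85, 2.78 and 2.38 RPKM and PKM at 124.4, 118.3 and 122.0 RPKM. The liver glycogen synthase GYS2 had 0 reads, against 8.72, 8.35 and 7.28 RPKM for GYS1. The exceptions were ALB over AFP, given above, and the glycogen phosphorylases PYGL over PYGB, with a log2 ratio of 0.56 ± 0.0156. With 3 libraries no test of a single pair was made.

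**Figure D3:**
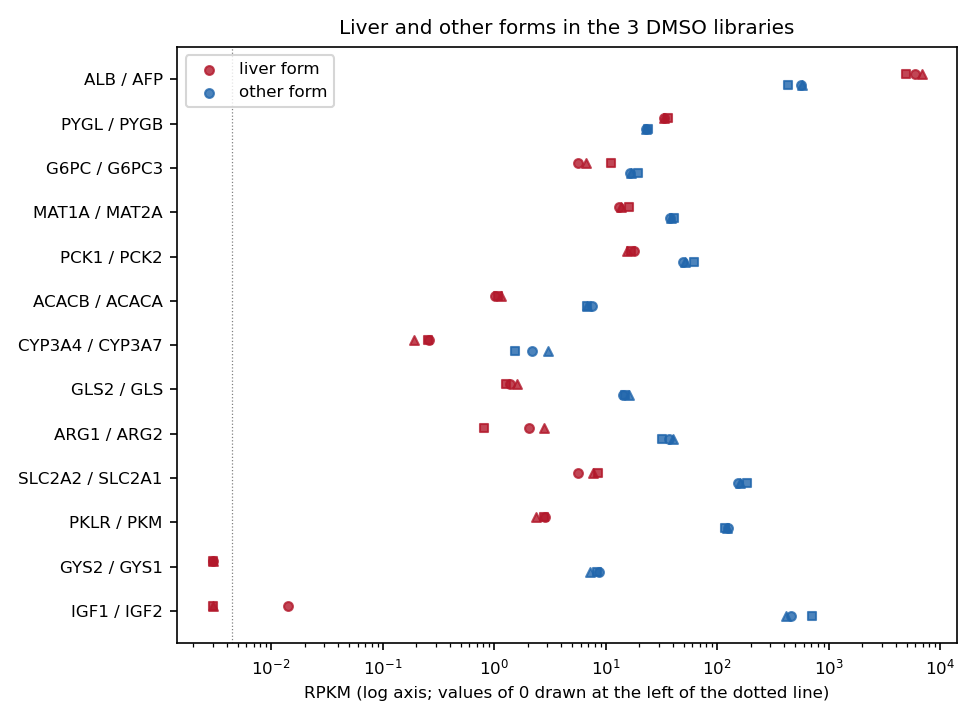
RPKM (log axis) of the liver form (red) and the other form (blue) of 13 of the 16 proteins in the 3 DMSO libraries (circle, replicate 1; square, replicate 2; triangle, replicate 3), with values of 0 left of the dotted line. The red points lie left of the blue ones in 11 pairs, and right of them for ALB and PYGL.

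In the treated libraries each of the 16 pairs kept the direction it had in DMSO, in all 12 libraries. For CYP3A4 over CYP3A7 the log2 ratio was −2.77 ± 0.613 in DMSO and ran between −3.63 and −2.15 in the treated libraries. For PCK1 over PCK2 it was −1.68 ± 0.217 in DMSO and between −2.56 and −1.75 in the treated libraries. With unique reads only, the PCK1 ratio in DMSO was −0.73, and 51.1% of PCK2 reads were unique.

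Genes of the foetal liver and of liver tumours were expressed in 25 of 32 cases. GPC3, a surface proteoglycan used as a marker of hepatocellular carcinoma, stood at 940.0, 1103 and 988.8 RPKM. SPP1, the secreted protein osteopontin, stood at 651, 493 and 596 RPKM, PEG10, an imprinted gene, at 342 ± 16.9 RPKM and the aldo-keto reductase AKR1B10 at 242 ± 48.6 RPKM. DLK1, a foetal membrane protein, was at 80.1 ± 15.2 RPKM, and LIN28B, which blocks maturation of the let-7 microRNAs, at 19.2 ± 3.21 RPKM. Its relative LIN28A was not detected. TERT, the catalytic subunit of telomerase, stood at 0.523, 0.615 and 0.563 RPKM, below the level of an expressed gene but with 21, 25 and 61 exon reads. CD44, a surface receptor of many carcinomas, was not detected.

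Targets of beta-catenin, the effector of WNT signalling, were expressed in 16 of 21 cases. The feedback inhibitors NOTUM (117 ± 24.9 RPKM), NKD1 (74.4 ± 2.54) and AXIN2 (37.3, 37.1 and 36.5 RPKM) were among them, as were the transcription factor SP5 (69.0 ± 3.81), the receptor LGR5 (26.7 ± 0.764) and MYC (60.3 ± 2.46). LEF1 was at 0.0480 ± 0.0353 RPKM and REG3A at 0 reads. In the liver, genes around the central vein depend on this pathway. Of 15 pericentral genes 8 were expressed and 4 were not detected, and of 15 periportal genes 7 were expressed and 4 were not detected. The expressed shares, 53.3% and 46.7%, were near the 49.6% of protein coding genes. The pericentral members that were expressed included GLUL, AXIN2, LGR5 and OAT (28.5 ± 0.754 RPKM), while the P450 members of the list, among them CYP2E1, CYP1A2, CYP2C8, CYP3A4 and CYP7A1, were all below 1 RPKM.

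Cell division genes were expressed almost without exception, 44 of 45, and CCNE2 was the member below 1 RPKM (0.352 ± 0.0486). PCNA, the replication clamp, stood at 144, 103 and 125 RPKM, TOP2A at 43.6 ± 6.16 and MKI67 at 9.89 ± 0.529 RPKM. Among growth control genes CTNNB1, which encodes beta-catenin, stood at 51.0 ± 2.37 RPKM. CDKN2A, a cell cycle inhibitor, was at 0.124 ± 0.0137 RPKM, and MYCN, KIT and PDGFRA had 0 reads. None of 26 cancer testis antigens was expressed and 22 were not detected. Targets of NRF2, the factor of the oxidative stress response, were expressed in 23 of 24 cases, with NQO1 at 228 ± 21.4 RPKM. ME1 was the exception.

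Marker lists of 6 other cell types of liver and blood served to check the label. All 12 endothelial and 14 erythroid markers were below 1 RPKM, and 1 of 12 lymphocyte markers, CD3D at 1.79 ± 0.0512 RPKM, was above it. Of 14 macrophage markers LYZ and CD68 (11.9 ± 1.96 RPKM, 5.46% unique reads) were expressed, while CD163, CSF1R, VSIG4, C1QA, C1QB and C1QC had 0 reads. The summed macrophage list ran between 2172 and 2792 RPKM in DMSO, nearly all of it LYZ. Of 11 stellate cell and fibroblast markers ACTA2 (7.12 ± 0.781 RPKM), TAGLN and PDGFRB were expressed, and COL1A2, DCN and LUM had 0 reads. Of 13 bile duct markers 7 (53.8%) were expressed, near the 49.6% of protein coding genes. Those expressed included SPP1, KRT19 (62.1 ± 8.09 RPKM), EPCAM (61.5 ± 6.36) and SOX9 (53.6 ± 2.70, 8.91% unique reads). CFTR had 0 reads, and KRT7 and MUC1 were not detected. TTR, a thyroid hormone carrier made by hepatocytes, stood at 72.9 ± 2.33 RPKM. The well-known hepatocyte genes ALB, APOA1, APOB, SERPINA1, TF, FGB and HNF4A were expressed as given above, but they were picked for their known abundance, while 8 of 51 plasma protein genes and 22 of 51 cytochrome P450 genes were not detected. A genetic profile of the cell stock was not used here, so whether low levels of H19, INSIG1 or GC are particular to the stock was not tested.

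The intron share, the reads inside a gene but outside its exons as a share of its gene reads, can hold unspliced RNA, unannotated exons and reads of overlapping genes. It was 9.10, 8.91 and 8.68% in the 3 DMSO libraries, with a mean of 8.90 ± 0.211% (SD, n = 3). Part of it came from genes with no exon length in the authors' annotation, for which every read was counted as an intron read. These 20986 genes held 20.6 ± 1.46% of all intron reads, and the mitochondrial ribosomal RNA MT-RNR2 alone held 16.7 ± 1.46%. Without them the intron share was 7.20 ± 0.247%. The non-coding RNA LINC00657 was the third of these genes with 0.601 ± 0.0415% of intron reads.

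Over 9702 nuclear protein coding genes with 50 or more gene reads in each library, the median intron share was 6.58%. It fell with level: when genes were divided into 4 equal groups by mean RPKM, the medians of the groups, lowest to highest, were 13.7, 7.95, 5.72 and 2.83%. Spearman's rho across genes was −0.485 with mean RPKM and 0.371 with intronic length, and between 0.940 and 0.963 for the intron share itself between pairs of replicates. Genes are not independent replicates, and level and intron share come from the same reads. The 6615 genes that overlap another annotated gene had a median of 7.36%, and 367 of them had 50% or more. The 3087 that overlap none had a median of 5.23%, and 35 had 50% or more.

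The 10 highest shares among genes with 5 RPKM and 200 gene reads or more were led by SYNJ2BP-COX16, a readthrough transcript (91.9 ± 1.94%), RP11-298I3.5 (91.0 ± 0.355%), ZIM2 (89.9 ± 0.950%) and CDC26 (87.8 ± 0.603%). All 10 overlapped another gene. ZIM2 overlaps the imprinted gene PEG3, and 0.0379% of its intron reads were unique. CHCHD3 had 85.4 ± 3.12% with 1.01% unique intron reads, and the 1 gene it overlaps had 0 gene reads. At the other end 56 of 5162 genes had no intron read in any DMSO library, 13 of them mitochondrially encoded. For 50 of the 56, CEBPB and ADM among them, the annotated exon length equals the gene span, so a share of 0 is fixed by the annotation.

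**Figure D4:**
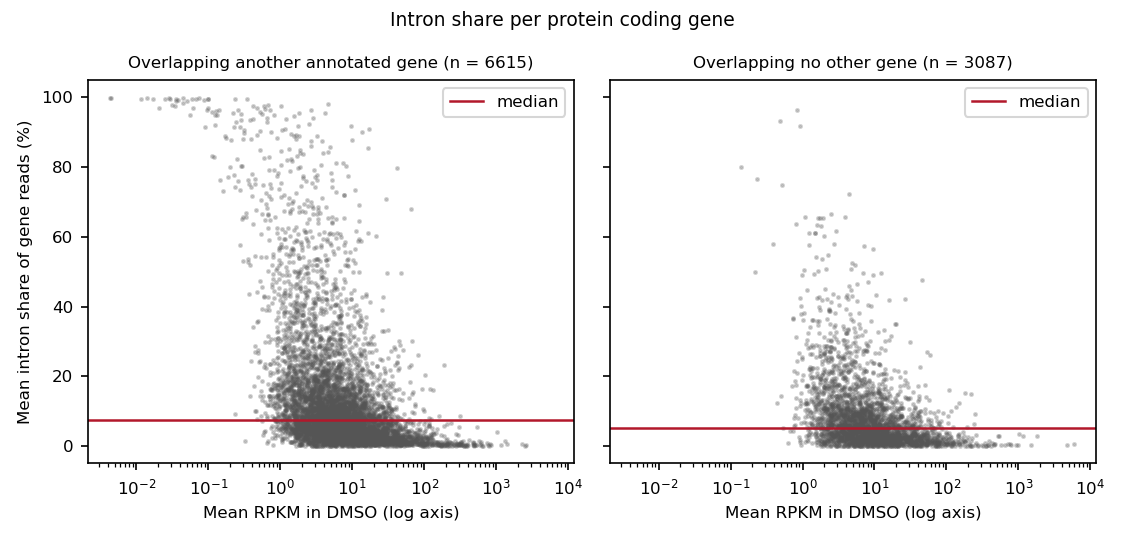
Mean intron share of gene reads (percent) against mean RPKM (log axis) in the DMSO libraries, 1 point per protein coding gene, for 6615 genes that overlap another annotated gene (left) and 3087 that do not (right). The red lines are the medians, 7.36% and 5.23%, and high shares are mostly at low RPKM.

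Genes with no overlapping neighbour and at least 90% unique intron reads were looked up after the values had been seen, again among those with 5 RPKM and 200 gene reads or more. The highest of these were the membrane protein gene CMTM4 (57.4 ± 1.64%), RHBG, an ammonia channel and beta-catenin target (59.1, 53.1 and 57.0%), DNAJC22 (51.9 ± 0.876%) and SLC22A31 (49.7 ± 1.47%). HGD, the homogentisate oxidase of tyrosine breakdown, had 50.3, 47.7 and 45.1% at 45.7 RPKM. Its intron reads numbered 1141, 1069 and 2815. In the treated libraries the share of HGD ran between 43.1 and 52.1%, a range that includes the DMSO values.

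Among the gene lists, the median intron share was highest in transporters (17.2%, 21 genes) and cytochrome P450 (16.5%, 14 genes) and lowest in glycolysis (1.67%, 21 genes), oncofetal genes (2.45%, 24 genes) and proliferation (3.01%, 44 genes). Plasma proteins had 3.05% over 34 genes and ALB had 0.504 ± 0.0361%. The lists differ in level, which moves with the share. LGR5 had 18.3 ± 1.46% and HNF4A 17.9 ± 1.33%. For TERT, 54.6 ± 2.19% of gene reads were in introns. The non-coding RNAs MALAT1 and NEAT1 had 83.7 ± 2.15% and 58.6 ± 0.767%. Whether these reads come from unspliced RNA or from unannotated exons was not tested.

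The DMSO replicates differed little. Pearson's r of log2(RPKM + 0.1) across 10110 genes was 0.987 between replicates 1 and 2, 0.993 between 1 and 3 and 0.990 between 2 and 3. Over 7987 genes with 1 RPKM and 100 exon reads or more in each library, the median coefficient of variation (CV) was 7.08%, against 4.63% from counting error, and 97.4% of genes were under 20%. Without replicates 1, 2 and 3 in turn the median CV was 6.28, 4.44 and 6.69%. A CV of 2 values tends to be lower than a CV of 3, so these are not on the scale of 7.08%. Among the lists the median CV ran from 3.04% for pericentral genes to 10.3% for oncofetal genes. The 10 largest CVs were between 45.4 and 72.2%, all in genes with at most 51.0% unique reads, led by the pseudogene RPL9P7 (18.9, 40.0 and 87.6 RPKM, 1.40% unique reads).

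Whether the vehicle libraries stand apart from the rest of the series was tested with edgeR's quasi-likelihood test, with the DMSO group set against the mean of the 4 treated groups. Of 12567 genes tested 0 were called at an adjusted p under 0.05 (0% called), and 1342 (10.7%) had an unadjusted p under 0.05. DESeq2, the other tool, called 73 of the 7207 genes to which it gave an adjusted p. With no filter on low counts edgeR called 354 of 22008 genes, and with unique exon reads 13 of 11793. With library totals or total gene reads it called 0. Leaving out 1 library gave 48 calls without DMSO replicate 2, 1 without DMSO replicate 3, 5 without TCEP 250 µM replicate 1, 12 without TCIPP 25 µM replicate 1 and 0 without any other. Of 476 tested genes of the liver and tumour lists 0 were called and 109 (22.9%) had an unadjusted p under 0.05. The 95% interval of a log2 difference reached a median of 0.19 to either side. A missed threshold does not show that the groups were alike, and treatments that act in opposite directions can cancel in their mean.

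The 5 genes with the smallest p had an adjusted p of 0.0607 each in edgeR's test, with positive values higher in DMSO. SPP1 had a log2 difference of 0.61 ± 0.102 (SE), with 651, 493 and 596 RPKM in DMSO against 298 to 473 in the 12 treated libraries. Those ranges do not overlap. SGK1, a kinase of salt and hormone responses, had 0.53 ± 0.0839, with 9.19, 6.98 and 9.03 RPKM in DMSO against 5.27 to 6.89. ETNPPL, a lyase of phosphoethanolamine, had 1.46 ± 0.246 and overlapped the treated range. GLP2R, a receptor for a gut peptide, had 2.69 ± 0.461 and the pseudogene NPIPP1 −0.64 ± 0.113 with 5.95% unique reads. DESeq2 gave no adjusted p for ETNPPL, GLP2R or NPIPP1, and their levels are not reported here. Over 21 alternative settings the difference of each of the 5 kept its sign, while the adjusted p ran between 1.27e-14 and 0.536 for SPP1 and between 3.46e-09 and 0.462 for SGK1, and each of these 2 genes was called in 7 settings. The summed bile duct list, most of it SPP1, ran between 692 and 844 RPKM in DMSO and between 514 and 651 in the treated libraries. The median log2 difference of its 7 tested members was −0.12, which is lower in DMSO, and the sum and the median thus differ in direction. The part of the bile duct markers in the difference of SPP1 was not tested.

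The ranges of the marker genes ALB and GPC3 overlapped between DMSO and treated libraries. ALB ran between 4921 and 6801 RPKM in DMSO and between 3714 and 5731 in the treated libraries, with an edgeR adjusted p of 0.307. For GPC3 the ranges were 940.0 to 1103 and 1082 to 1212 RPKM, and the adjusted p was 0.304. Of the 430 list genes that were expressed in DMSO 416 were at 1 RPKM or more in all 12 treated libraries as well. Of the 102 list genes not detected in DMSO 93 had 3 reads or fewer in all 15 libraries, and 0 reached 1 RPKM in any treated library.

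The top of the ranking took a larger share of reads in DMSO. The 10 most abundant genes of each library held 13.5 ± 0.302% of exon reads in DMSO (n = 3) and 12.3 ± 0.478% in the treated libraries (n = 12), a difference of 1.13 points (exact permutation test over all choices of 3 among 15 libraries, two-sided, p = 0.00659, 0.0330 adjusted over 5 measures). For the top 100 genes the shares were 31.0 ± 0.300% and 30.5 ± 0.301% (exact permutation p = 0.0198, adjusted 0.0495). Without DMSO replicate 1, 2 or 3 in turn, the top 10 difference was 0.953, 1.23 and 1.199 points (adjusted exact permutation p of 0.165, 0.110 and 0.0549) and the top 100 difference 0.414, 0.449 and 0.689 points (0.247, 0.147 and 0.0549). With only 2 DMSO libraries left, a measure at the smallest possible p adjusts to 0.0549 unless another measure reaches it too. Without replicate 1 or 2 the adjusted p-values lay above that limit. Without replicate 3 they equalled it, but the top 10 share was not at the smallest possible p. TCIPP 25 µM replicate 1, at 13.35%, lay above DMSO replicate 2, at 13.27%. Neither measure passed the threshold unless all 3 DMSO libraries were kept. In the top 10 share the DMSO range overlapped only 1 treated library, at TCIPP 25 µM, and in the top 100 share it overlapped libraries of TCEP 25, TCIPP 2.5 and TCIPP 25 µM. For the intron share (8.90 ± 0.211% against 8.46 ± 0.493%, adjusted exact permutation p = 0.225), the mitochondrially encoded share (6.997 ± 0.709% against 6.46 ± 0.482%, 0.223) and the unique share of reads (86.7 ± 0.354% against 86.5 ± 0.182%, 0.433) the test was not passed.

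**Figure D5:**
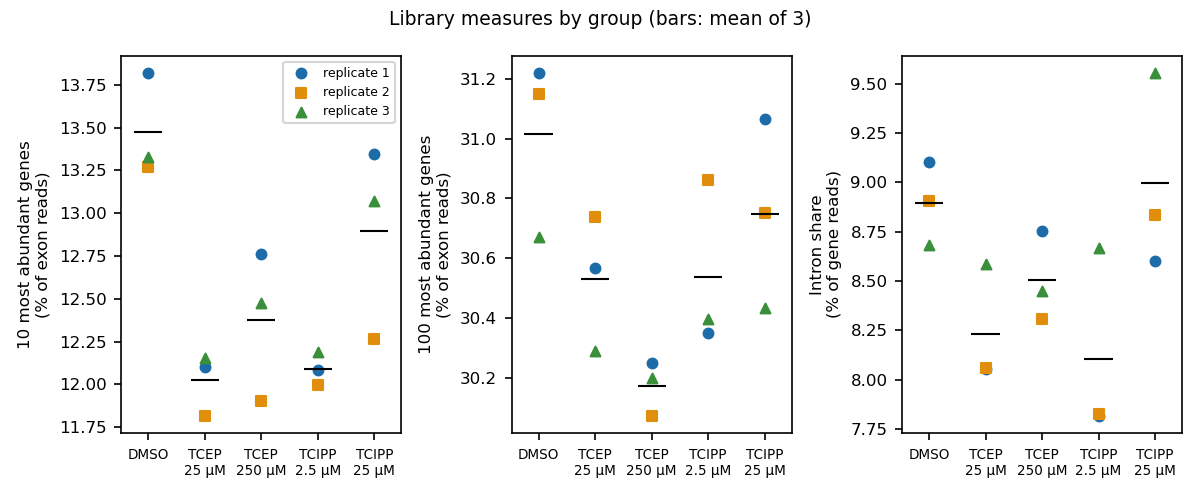
Share of exon reads in the 10 and the 100 most abundant genes and intron share of gene reads (percent, axes not starting at 0), 1 point per library by group, with bars at the mean of 3. The DMSO libraries lie between 13.3 and 13.8% for the top 10 genes, above all treated libraries except 1 at TCIPP 25 µM. In intron share they lie above all libraries at the lower dose of each compound and overlap those at the higher dose. The margin is small: the lowest DMSO library is at 8.68%, and the highest lower-dose library, at TCIPP 2.5 µM, is at 8.67%.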

How the data were processed

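RNA from HepG2 cells was sequenced in 15 libraries, and the 3 DMSO libraries are described here. The authors mapped and counted reads with CLC Genomics Workbench on hg19 (GRCh37), per the series' design text and the submitters' processing notes; the version and whether counting used the strand are not given in the sources used here. Whether reads of antisense partners were told apart is therefore unknown. The deposited tables hold whole-number read counts per gene (gene, exon and intron reads, total and unique), RPKM, and quantile-normalised values, a signal that the authors scaled in 2 sets and that served only in 1 alternative. RPKM recomputed from the deposited counts equalled the authors' value in 100% of entries, within a relative tolerance of 0.0001, with all gene reads as the denominator. Gene starts were moved by 1 base to a 1-based scale, and 27 names that had become dates were restored.

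Members, gene lists, pairs and tests were chosen with earlier results of these data known. The 29 lists held 696 genes, of which 694 matched. Named genes are the 20 highest by RPKM and by share of exon reads, the 3 highest and up to 4 undetected members of each list, the pairs, the extremes of intron share and CV, the 5 smallest p-values and a set of looked-up genes; other list members are named beside their list's count, after their values were seen, and some genes are not reported here. Counts were tested with edgeR 4.0.16 in R 4.3.3 (quasi-likelihood test, TMM, 5 groups, Benjamini-Hochberg over 12567 genes), and DESeq2 1.42.0 was an alternative. On simulated counts with 200 changed genes the edgeR step was tested first. Library measures were compared by exact permutation. A floor of 3 reads was 0.140 to 0.379 CPM, scaled to exon reads, in the DMSO libraries. P-values measure the spread between separately seeded cultures of 1 line.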

Additional observations from a re-analysis of the deposited data

How the results depend on the processing

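Counts of expressed and undetected genes, of expressed list members and of pairs stayed within 1.5 times their value under every alternative tried. The number of genes called between DMSO and the treated libraries did not. It was 0 of 12567 in the edgeR test, 73 of 7207 with DESeq2 and 354 of 22008 with no filter on low counts. With unique exon reads it was 13 of 11793, and with library totals or total gene reads 0. Leaving out single libraries gave between 0 and 48 calls, with 48 without DMSO replicate 2, 1 without DMSO replicate 3, 12 without TCIPP 25 µM replicate 1 and 5 without TCEP 250 µM replicate 1. The cause was not tested. With the replicate number as a block, 568 genes were called (267 higher and 301 lower in DMSO). The numbers share no stated day or plate. Same-numbered libraries correlated with DMSO between 0.0164 and 0.158, all positive but not over 0.1 throughout, so the block was not taken as a pairing. The labels cannot decide whether same-numbered libraries share an effect. The block moved no call of the 5 library measures (the top 10 difference stayed at 1.13 points).

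Without single DMSO replicates the differences in share ran between 0.953 and 1.23 points for the top 10 genes and between 0.414 and 0.689 for the top 100. Their adjusted exact permutation p ran between 0.0549 and 0.247. A lone measure at the smallest p that 2 of 14 libraries allow adjusts to 0.0549. The difference in unique share ran between −0.0652 without replicate 1, where it turned round, and 0.288. The top 10 share in DMSO was 11.5% without mitochondrial genes and 25.5% as a share of RPKM. The intron share was 7.29% with unique reads and 7.20% without genes that have no exon length, an alternative added after seeing the data. The median CV ran between 4.44 and 6.69% without single replicates. Of 80 pair ratios under alternatives, 65 stayed within 1 SD, 15 moved and 0 turned round; each move came with a pseudocount of 1 RPKM or with unique reads.

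Depth limits the undetected genes: replicates 1 and 2 are the shallower libraries, and thinning to the shallowest gave 22768 undetected genes, against 21968.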
